A study of Homo sapiens with 9 samples.

Results

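The genes described here are the collagen chains and a set of matrix glycoproteins as they were expressed in HepG2, an established human cell line from a hepatocellular carcinoma. They were taken by name: every gene whose symbol is COL, a number, A and a number, together with ELN, FBN1, FBN2, FN1, SPARC, POSTN, MGP, FSTL1, PXDN, LUM, DCN, BGN and THBS1. This gave 57 of the 19317 genes in the deposited table, of which 44 are collagen chains and 13 are glycoproteins or other matrix proteins. Of the 57, 36 had enough counts to be tested and 21 did not, and 5 of the untested chains (COL6A5, COL6A6, COL9A1, COL22A1 and COL23A1) had a count of 0 in all 9 libraries.

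The study compared control HepG2 cells with 2 cell models of fat accumulation, each with 3 libraries. Control cells, labelled WT, stayed in RPMI medium. Cells labelled DNL, for de novo lipogenesis, were kept for 1 week in DMEM that held insulin at 10 µg/ml and T0901317, which activates the liver X receptors, at 10 µM. Cells labelled OA received DMEM and 25 µM oleic acid, which was carried in 11% bovine serum albumin, for 6 hours. All media held 10% serum and 1% antibiotics, and the genotype label was WT for every sample. No library came from cells given the albumin alone, and medium, added compounds and duration differ together between the groups, so their parts cannot be told apart. Whether replicates came from separate cultures is not in the labels, and the spread behind the p-values may therefore be technical.

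Collagens are proteins of 3 chains wound into a triple helix. Fibrillar collagens assemble into fibrils, basement membrane collagens into a sheet-like network, and fibril-associated collagens sit on the surface of fibrils. Elastin and the fibrillins form elastic fibres, and fibronectin, thrombospondin and SPARC link cells to this matrix or change how they adhere to it. In liver, hepatocytes secrete much of the fibronectin, whereas the fibril-forming collagens that build up in fibrosis come mainly from activated stellate cells and fibroblasts.

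Levels are counts scaled to a common library size by TMM (CPM), as mean ± SD over 3 libraries or as the values of replicates 1, 2 and 3 in that order. Library totals were 26425694 to 43043347 in WT, 16447398 to 36147431 in DNL and 7836520 to 28636903 in OA, and a count of 3 corresponded to between 0.0691 and 0.356 CPM. A gene was called where the Benjamini-Hochberg adjusted p of edgeR's quasi-likelihood test, over 13636 genes in 1 fit of all 9 libraries, was under 0.05. A log2 fold change is a difference, with its standard error (SE), and all other values are levels.

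The 3 OA libraries differed from each other in many of these genes, so the value of every OA library is given for the genes of the set that reached 5 CPM in a group. Among the 33 tested genes of the set whose mean was 1 CPM or more in OA, the highest OA library was over 2-fold above the lowest for 22 (66.7%), against 6.92% of all 12108 tested genes at that level. In WT, 2 of 18 genes of the set at that level (DCN and FBN1, 11.1%) varied that much, against 2.28% of all genes. In DNL it was 0 of 18, against 3.61% of all genes. These 18 had to reach 1 CPM in their own group, so they are not the same genes as the 33. For 15 of these 33 genes (45.5%), OA replicate 3 was highest, replicate 2 was between and replicate 3 was at least 10-fold over replicate 1. Of all 12108 genes, 64 (0.529%) had this order and size. These shares are a description and no test, since the set was taken up with the differences among the OA libraries known. Of its 36 tested genes, 12 passed the filter on low counts only through the OA libraries, and most of the 15 genes are among these 12. The 15 genes were COL1A1, COL1A2, COL3A1, COL4A1, COL4A2, COL5A1, COL8A1, ELN, FBN1, FBN2, FSTL1, POSTN, MGP, PXDN and BGN. Their levels in replicate 2 were 3.02 to 6.19 times those in replicate 1 (median 4.06), and in replicate 3 they were 16.1 to 35.2 times those in replicate 1 (median 25.5). COL6A3, which did not pass the filter on low counts and was not tested, had the same order, at 0.158, 1.19 and 8.08 CPM, a range of 51.1-fold. For 13 of the 15, all but FBN1 and BGN, every WT and DNL library was under 1 CPM. Totals were 11718261, 28636903 and 7836520 counts for OA replicates 1, 2 and 3, so that replicate 3 was the shallowest. A part of depth in these differences was not tested.

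Another 9 of these genes were even across the OA libraries, with the highest library at most 1.5 times the lowest: COL2A1, COL4A5, COL4A6, COL9A2, COL9A3, COL16A1, COL18A1, COL27A1 and FN1. The scatter of ratios among OA libraries shows both sets, one near the centre with most genes and one far to the upper right.

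**Figure D1:**
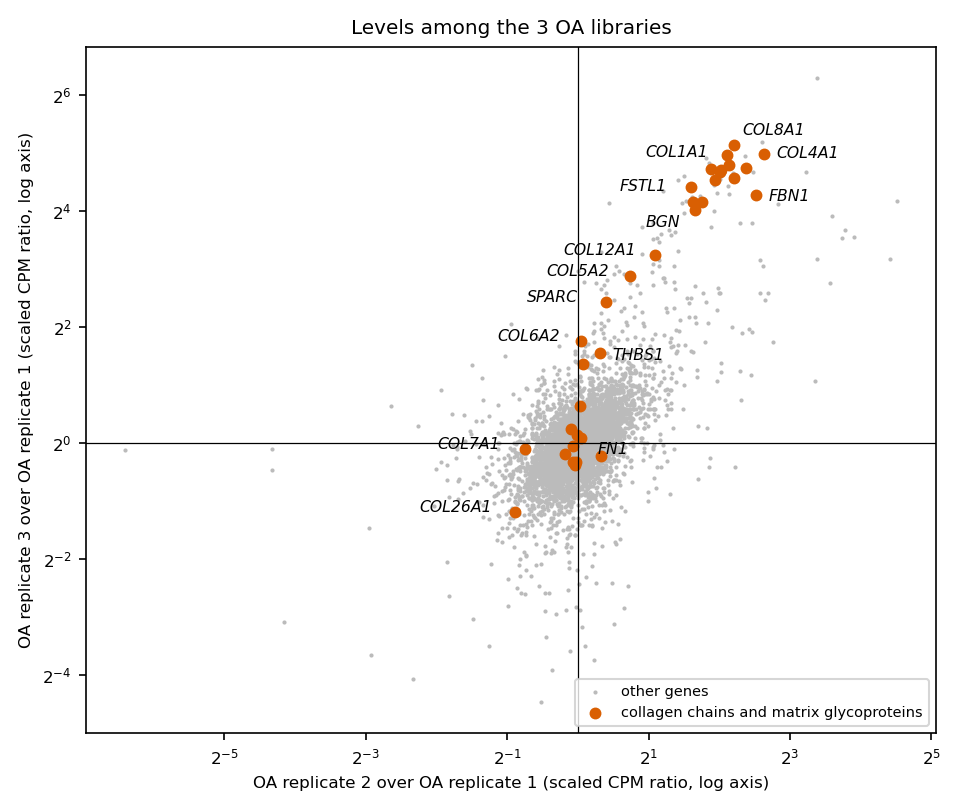
Ratio of each gene's scaled CPM in OA replicate 2 over replicate 1 (x axis) and in replicate 3 over replicate 1 (y axis), both on log axes, with the collagen chains and matrix glycoproteins in orange, some of them named, and other genes in grey. COL1A1, COL4A1, COL8A1, FBN1, FSTL1 and BGN lie among the 15 genes whose ratio of replicate 3 to replicate 1 was between 16.1 and 35.2, while FN1 lies near the crossing of the lines at a ratio of 1.

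Markers of other cell types were looked at in the same libraries. Of 12 stellate cell and fibroblast markers, 6 ranked the OA libraries in the same way, with replicate 3 highest and replicate 1 lowest (ACTA2, LRAT, PDGFRA, PDGFRB, RGS5 and TAGLN). In these 6, replicate 3 was 1.32 (LRAT) to 36.5 (RGS5) times replicate 1, and the share of all genes with this order was not counted. Of the 12, 5 were higher in OA replicate 3 than in every WT and DNL library (ACTA2, HAND2, PDGFRA, RGS5 and THY1). RGS5, a pericyte marker, was at 0.632, 3.85 and 23.04 CPM in OA, and PDGFRA, a fibroblast marker, at 0.237, 0.955 and 5.58 CPM. Only these 2 of the 12 markers had that order with a 10-fold range. NGFR, COLEC11 and RELN stayed nearly flat, with OA replicate 3 at 0.973, 0.964 and 0.917 times replicate 1. For OA against WT, 10 markers of the list were tested, with 4 calls for a fall and 1 for a rise, 50% in all, against 60% of all tested genes. The summed level of the list, led by RELN in every group, was 1148 to 1190.0 CPM in WT, 1320.4 to 1389.9 CPM in DNL and 783, 753 and 946 CPM in OA. DES and HAND2 had no counts in WT or DNL, and in OA each had 1 count in a single library. The vimentin gene VIM, of mesenchymal cells, was picked after its values were seen: it was listed at 0 in every WT and DNL library and stood at 3.79, 10.5 and 66.7 CPM in OA. The 10 endothelial markers summed to 2.92 to 3.47 CPM in WT, 11.7 to 13.7 CPM in DNL and 9.32, 8.86 and 12.8 CPM in OA. CLEC4G, ERG and KDR had counts in OA only, CDH5 had none in OA, and STAB2 had none in any group. For 3 of the 10 (KDR, LYVE1 and TEK), OA replicate 3 was above every WT and DNL library. Of the leukocyte markers, C1QB, CD163, CD3E and MARCO had no count in any group, and C1QA and CSF1R had counts in OA only. The summed level of 10 macrophage and leukocyte markers, led by LYZ, was 979 to 989.6 CPM in WT, 1618 to 1712 CPM in DNL and 1057 to 1092 CPM in OA. The 12 hepatocyte markers were all at 1 CPM or more in every group, with sums of 42990 to 44589 CPM in WT, 77084 to 79118 CPM in DNL and 15769.7, 14363 and 13811 CPM in OA. The part of other cells in the OA values was not tested, and in bulk RNA fewer cells of a type and less RNA per cell cannot be told apart.

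In WT, these genes together gave 21128 ± 622 CPM, of which FN1 alone made 95.2% to 95.7% in each library. Their sum was 19239 ± 279.7 CPM in DNL and 16828 ± 1665 CPM in OA. The 44 collagen chains summed to 736 ± 24.5 CPM in WT and 928 ± 8.70 CPM in DNL, and to 503, 609 and 1527 CPM in OA. In WT and DNL alike, 18 of the 57 genes reached a mean of 1 CPM, against 34 in OA. The heat map shows the 30 genes that reached 5 CPM in a group, by library.

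**Figure D2:**
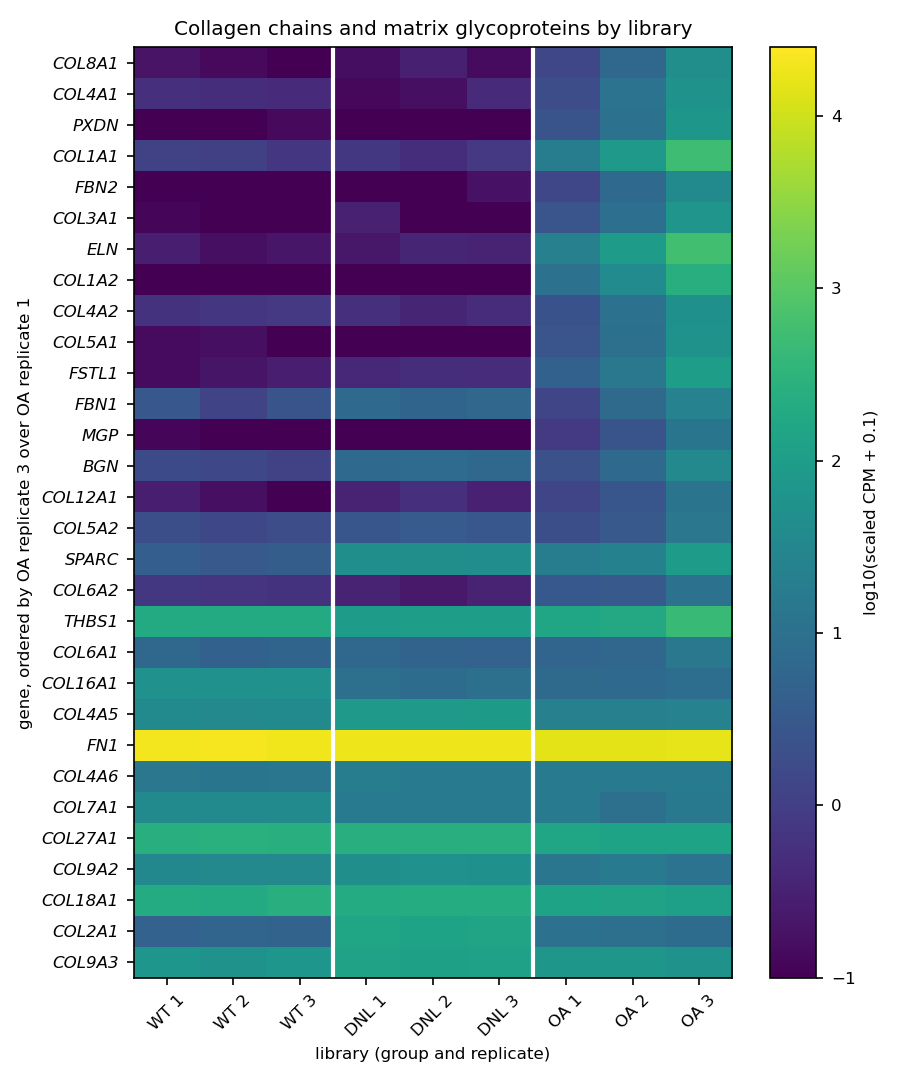
Level of the 30 genes whose mean reached 5 CPM in at least 1 group (rows), as log10 of scaled CPM + 0.1, in the 9 libraries (columns), ordered by the ratio of OA replicate 3 to OA replicate 1. The upper rows are dark in WT and DNL, with OA replicate 3 the brightest OA column and replicate 1 the darkest, the lower rows have a similar shade in all 3 OA libraries, and FN1 is the brightest row.

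In DNL against WT, 6 of the 36 tested genes were called higher and 4 lower, 27.8% in all, where 53.8% of all tested genes were called (27.1% higher and 26.8% lower). With only WT and DNL in the fit, 24 of the set were tested, and 9 were higher and 6 lower, 62.5% in all, against 58.7% of all genes. In OA against WT, 19 were called higher and 9 lower, 77.8% in all, against 60% of all genes (30.4% higher and 29.7% lower). In DNL against OA, 9 were higher and 16 lower in DNL, 69.4% in all, against 62.8% of all genes (31.9% higher and 30.9% lower). The median log2 fold change was 0.01, 2.06 and -1 in the order of these comparisons, beside -0.02, -0.03 and 0.01 over all genes. Of the 36 genes, 12 passed the filter on low counts only through the OA libraries, so the shares and medians of the comparisons with OA are partly set by that filter. They were COL12A1, COL1A2, COL20A1, COL3A1, COL5A1, COL8A1, ELN, FBN2, FSTL1, MGP, POSTN and PXDN. Among the 24 others, a split made after seeing the data, OA exceeded WT in 9 and was below it in 9, 75% against 60.5% of all genes that passed in the same way, with a median log2 fold change of 0.33. The medians over 36 genes were the same with genes that had no counts in a group set at their lower bound, or at 0 where both groups had at most 3 counts. This reset only 6, 3 and 5 values in the order of the comparisons, which can hardly move a median. In both treatments 3 genes were higher (COL2A1, COL4A6 and SPARC) and 4 were lower (COL7A1, COL16A1, COL26A1 and FN1). COL4A5 and COL9A2 were higher in DNL and lower in OA, and COL9A3 was called higher in DNL with no call in OA. Of the 19 genes higher in OA, 16 had no call in DNL against WT, and COL18A1, COL27A1 and COL28A1 were lower in OA with no call in DNL. The comparisons with WT share the WT libraries. With OA replicate 3 left out, DNL against WT gave 9 higher and 7 lower, and OA against WT 19 and 11, of which 18 and 9 were calls of the full set.

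Among the fibrillar collagens, COL2A1 changed most in DNL. COL2A1 (chromosome 12, 47972965 to 48004554 in GRCh38) encodes the chain of type II collagen, the main fibril of cartilage. Its level was 4.88, 5.65 and 5.19 CPM in WT, 148, 136 and 146 CPM in DNL and 10.03, 9.85 and 7.96 CPM in OA. All DNL libraries lay far above the others, and all OA libraries above all WT libraries. The rise in DNL was 27.4-fold (log2 fold change 4.78, SE 0.0859, adjusted p = 4.80e-13), and that in OA was 1.81-fold (log2 fold change 0.86, SE 0.0971, adjusted p = 6.07e-06). Per kilobase of the longest coding transcript, the mean level of COL2A1 was 1.03 CPM in WT and 28.2 CPM in DNL, where COL9A3 had 49.3 CPM, COL18A1 33.5 CPM and COL27A1 31.7 CPM.

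COL27A1, a fibrillar chain of cartilage and other tissues, was the most abundant collagen mRNA of WT cells by CPM (chromosome 9, 114155560 to 114312511). It stood at 254, 264 and 258 CPM in WT, 242, 255 and 245 CPM in DNL and 151, 133 and 133 CPM in OA. WT and DNL overlapped, and every OA library was lower. It fell in OA (log2 fold change -0.896, SE 0.0506, adjusted p = 9.71e-09), while the difference between DNL and WT passed no threshold (log2 fold change -0.06, SE 0.04905, adjusted p = 0.292).

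Type I collagen is the main collagen of scars, made of COL1A1 and COL1A2 chains. COL1A1 (chromosome 17, 50183289 to 50201632) was at 0.9898, 0.948 and 0.622 CPM in WT, 0.647, 0.399 and 0.706 CPM in DNL and 19.3, 85.002 and 537 CPM in OA. Its lowest OA library was above every WT and DNL library, and it rose in OA (log2 fold change 7.89, SE 1.6003, adjusted p = 0.00536). Without OA replicate 3 the OA mean was 52.2 CPM and the log2 fold change 5.92 (adjusted p = 0.000775). The call was lost in limma-voom (log2 fold change 6.55, adjusted p = 0.0691). COL1A2 (chromosome 7, 94394561 to 94431232) had no counts in any WT or DNL library and was at 10.2, 41.1 and 259.6 CPM in OA. Against a floor of 3 counts over the WT group, OA replicate 1 was at least 341-fold higher, replicate 2 at least 1373-fold and replicate 3 at least 8681-fold. These bounds cover counting error only. In the fit of 9 libraries COL1A2 was not called (adjusted p = 0.118), whereas DESeq2 called it (adjusted p = 1.66e-05). Per length, the ratio of COL1A1 to COL1A2 was 1.53, 1.67 and 1.66 in OA replicates 1, 2 and 3, a far narrower range than that of either level.

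Type III and type V collagens accompany type I in fibrils. COL3A1, the type III chain, had 1 count over the WT group, 7 counts in a single DNL library and 2.53, 9.36 and 66.9 CPM in OA. The ratio of OA to WT had an exact 95% interval of 307 to 67791, for counting error only, and OA was called higher (adjusted p = 0.00461). COL5A1 of type V collagen was at 0.04604, 0.0677 and 0 CPM in WT, had no counts in DNL, and was at 2.61, 9.95 and 60.1 CPM in OA. It was called higher in OA (adjusted p = 0.0183, and 0.000129 without OA replicate 3), but with any 1 of the WT replicates left out the adjusted p was 0.0722 to 0.0783. COL5A2, its partner chain, was at 1.86, 1.35 and 1.83 CPM in WT, 2.68, 3.39 and 2.87 CPM in DNL and 1.895, 3.16 and 14.01 CPM in OA. OA replicate 1 lay next to the highest WT library. The call of COL5A2 in OA (log2 fold change 1.84, SE 0.6404, adjusted p = 0.0332) was lost without OA replicate 3 (log2 fold change 0.62, adjusted p = 0.0863), without any 1 WT replicate (adjusted p = 0.0746 to 0.0991) and without DNL replicate 2 (adjusted p = 0.0506). COL11A1, COL11A2, COL24A1 and COL5A3, the remaining fibrillar chains, had at most 7 counts in any library and were not tested.

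Of the 10 fibril-associated chains, COL9A2, COL9A3 and COL16A1 reached 1 CPM in WT, and they differed in direction. COL9A2 and COL9A3 encode chains of type IX collagen, which covers type II fibrils in cartilage, while the third chain gene, COL9A1, had no count in any library. COL9A2 (chromosome 1, 40300487 to 40317813) was at 33.2, 34.4 and 33.9 CPM in WT, 48.3, 54.2 and 50.7 CPM in DNL and 12.9, 16.1 and 11.04 CPM in OA, with no overlap between any of the groups. It rose in DNL (log2 fold change 0.59, SE 0.0983, adjusted p = 0.000218) and fell in OA (log2 fold change -1.298, SE 0.109, adjusted p = 3.83e-07). COL9A3 (chromosome 20, 62816244 to 62841159) was at 69.7, 60.7 and 67.96 CPM in WT, 127, 117 and 124 CPM in DNL and 73.7, 71.8 and 56.6 CPM in OA. It rose in DNL (log2 fold change 0.897, SE 0.0861, adjusted p = 2.56e-06), and OA and WT overlapped (log2 fold change 0.04, SE 0.0884, adjusted p = 0.739). The ratio of COL9A3 to COL9A2 per length was 2.02 to 2.41 in WT, 2.49 to 3.02 in DNL and 5.12 to 6.56 in OA.

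COL16A1 fell in both treatments. It encodes a fibril-associated chain (chromosome 1, 31652247 to 31704319) and was at 55.1, 53.7 and 54.1 CPM in WT, 9.76, 7.92 and 9.68 CPM in DNL and 7.34, 6.85 and 8.67 CPM in OA. The highest treated library was at 9.76 CPM and the lowest WT library at 53.7 CPM. The level in WT was 5.896 times that in DNL (log2 fold change -2.56, SE 0.1002, adjusted p = 4.06e-10) and 7.28 times that in OA (log2 fold change -2.86, SE 0.107, adjusted p = 2.28e-10). DNL and OA overlapped, and their small difference (log2 fold change 0.305, adjusted p = 0.0322) was not called without DNL replicate 1, DNL replicate 3, OA replicate 1 or OA replicate 2 (adjusted p = 0.0547 to 0.178). COL12A1, a fibril-associated chain of tendon and skin, was at 0.184, 0.0677 and 0 CPM in WT, 0.246, 0.466 and 0.208 CPM in DNL and 1.26, 2.702 and 11.9 CPM in OA. It was called higher in OA (log2 fold change 5.67, SE 1.01, adjusted p = 0.000692), and without OA replicate 3 the log2 fold change was 4.36 (adjusted p = 0.000179). COL20A1 ranged from 0 to 0.869 CPM over all libraries and was called lower in DNL than in OA (adjusted p = 0.00728), although OA replicate 3 had no count. COL14A1, COL19A1, COL21A1 and COL22A1 had at most 10 counts in any library and were not tested.

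The basement membrane chains COL4A5 and COL4A6 lie head to head on the X chromosome. Their nearest RefSeq start sites (GRCh38.p14) lie on opposite strands with 379 bases between them, so that 1 stretch of DNA lies upstream of both. RefSeq has 2 start sites for COL4A6, and the other, with 1035 bases between it and the first, is further into the gene and does not share this stretch. Counts per gene do not tell these start sites apart. The sequences upstream of both genes are shown because the chains share this stretch and moved in opposite directions in OA, while both rose in DNL. They are printed 5′ to 3′ on the strand of each gene, without bases that lie in an annotated exon, and capitals mark CCAAT boxes (letters CCAAT, on either strand). For COL4A5 they are chrX:108439588-108439837 on the plus strand, ending at the start site, and for COL4A6 chrX:108439498-108439708 on the minus strand, ending 39 bases before it.
COL4A5: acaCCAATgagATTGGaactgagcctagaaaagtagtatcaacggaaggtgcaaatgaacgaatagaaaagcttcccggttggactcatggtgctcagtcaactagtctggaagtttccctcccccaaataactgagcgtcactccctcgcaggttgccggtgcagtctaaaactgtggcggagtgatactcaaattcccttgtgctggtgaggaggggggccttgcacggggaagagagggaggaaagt
COL4A6: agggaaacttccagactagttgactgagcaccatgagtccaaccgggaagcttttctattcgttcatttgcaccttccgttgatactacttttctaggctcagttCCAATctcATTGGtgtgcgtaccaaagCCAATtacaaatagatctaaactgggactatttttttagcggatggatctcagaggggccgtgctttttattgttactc
The windows overlap by 121 bases, and the pair of CCAAT boxes at the beginning of the COL4A5 window are the same bases as the first 2 boxes of the COL4A6 window. CCAAT was found in 32% of 35116 upstream windows of 250 bases in the RefSeq table, so that its presence is common. A TATA box, spelled TATAAA, was searched too and was not found on either strand of these windows. The same held for the GC box, searched on both strands as GGGCGG. Nuclear receptor half-sites, for which the search used AGGTCA, were not found there, nor was ACGTG, a motif core bound by hypoxia-inducible factors. The window of the other COL4A6 start site, not printed here, holds 1 GC box.

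COL4A5 was at 35.8, 35.2 and 37.5 CPM in WT, 83.6, 84.2 and 89.4 CPM in DNL and 22.2, 21.98 and 24.5 CPM in OA, and no groups overlapped. It rose 2.37-fold in DNL (log2 fold change 1.25, SE 0.0613, adjusted p = 3.17e-09) and fell in OA (log2 fold change -0.67, SE 0.0663, adjusted p = 1.77e-06). COL4A6, which forms a network together with COL4A5, was at 13.8, 12.3 and 13.2 CPM in WT, 18.7, 17.96 and 16.2 CPM in DNL and 16.9, 16.1 and 16.3 CPM in OA. Both treated groups lay above WT, with a rise in DNL (log2 fold change 0.42, SE 0.0946, adjusted p = 0.002103) and in OA (log2 fold change 0.32, SE 0.0972, adjusted p = 0.0117). The OA call was lost without WT replicate 2 (adjusted p = 0.0539). Per length, the ratio of COL4A5 to COL4A6 was 2.70 to 2.99 in WT, 4.67 to 5.76 in DNL and 1.37 to 1.57 in OA, 3 ranges that did not overlap.

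COL4A1 and COL4A2, the chains of most basement membranes, are also a head-to-head pair, on chromosome 13. COL4A1 was at 0.4604, 0.406 and 0.366 CPM in WT, 0.0308, 0.0665 and 0.332 CPM in DNL and 1.82, 11.2 and 57.7 CPM in OA. COL4A2 was at 0.506, 0.609 and 0.695 CPM in WT, 0.462, 0.266 and 0.374 CPM in DNL and 2.21, 10.2 and 52.3 CPM in OA. Both were under 1 CPM in all WT and DNL libraries and above that in every OA library, with log2 fold changes in OA of 5.77 (SE 1.35, adjusted p = 0.009105) and 5.13 (SE 1.17, adjusted p = 0.00774). Without OA replicate 3 these were 4.01 and 3.41 (adjusted p = 0.00195 and 0.000224). The ratio of COL4A1 to COL4A2 per length was 0.806, 1.08 and 1.08 in OA. COL4A3 and COL4A4, chains of the kidney and lung network, had at most 10 counts in any library.

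COL18A1, a basement membrane multiplexin whose end fragment is endostatin, was the second most abundant chain in WT by CPM (chromosome 21, 45405137 to 45513720). It was at 207, 203 and 241 CPM in WT, 212, 224 and 226 CPM in DNL and 137, 131 and 109 CPM in OA. WT and DNL overlapped (log2 fold change 0.02, SE 0.0824, adjusted p = 0.853), and all OA libraries were lower (log2 fold change -0.78, SE 0.0849, adjusted p = 1.28e-05). COL15A1, the other multiplexin, had at most 2 counts in any library.

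COL7A1, the chain of the anchoring fibrils that tie the skin's basement membrane to the dermis, fell in both treatments. The 250 bases upstream of its start site are shown because the gene fell under both and because they hold letters that nuclear receptors can bind (AGGTCA, on either strand). Whether these letters have any part in the fall was not tested. The bases are chr3:48595330-48595579 of GRCh38.p14 on the minus strand, with capitals at 2 half-sites, at the TATA box and at 3 GC boxes, some of them on the opposite strand. On that strand a half-site reads TGACCT. Likewise, a TATA box on the opposite strand reads TTTATA. An opposite GC box would be printed as CCGCCC.
COL7A1: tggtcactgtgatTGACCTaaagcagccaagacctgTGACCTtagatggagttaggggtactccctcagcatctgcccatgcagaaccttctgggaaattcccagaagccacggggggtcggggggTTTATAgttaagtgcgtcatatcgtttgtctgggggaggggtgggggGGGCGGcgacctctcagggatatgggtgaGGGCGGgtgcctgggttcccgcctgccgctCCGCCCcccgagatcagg
Over all 35116 windows, AGGTCA was found in 12.1%, TATAAA in 10.7% and GGGCGG in 42.6%, and these matches show letters only, not binding. COL7A1 (chromosome 3, 48564073 to 48595267) was at 35.7, 37.002 and 38.7 CPM in WT, 16.7, 16.2 and 15.998 CPM in DNL and 16.5, 9.82 and 15.3 CPM in OA. No treated library reached the WT range. The level in WT was 2.28 times that in DNL (log2 fold change -1.19, SE 0.144, adjusted p = 2.15e-05) and 2.76 times that in OA (log2 fold change -1.46, SE 0.152, adjusted p = 4.37e-06).

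Type VI collagen forms beaded filaments around cells. COL6A1 was at 6.17, 4.64 and 5.49 CPM in WT, 6.68, 5.26 and 4.78 CPM in DNL and 5.61, 5.897 and 14.5 CPM in OA, and was called in no comparison (adjusted p = 0.925, 0.126 and 0.152). COL6A2, its partner, was at 0.645, 0.542 and 0.512 CPM in WT, 0.246, 0.133 and 0.249 CPM in DNL and 3.001, 3.097 and 10.1 CPM in OA. It rose in OA (log2 fold change 3.19, SE 0.484, adjusted p = 8.29e-05), to a log2 fold change of 2.41 without OA replicate 3 (adjusted p = 7.64e-05). In DNL its libraries were all below WT, with no call in the full fit (log2 fold change -1.36, adjusted p = 0.0661) and a call without OA replicate 3 (adjusted p = 0.0128). COL6A3 had 3 counts in WT, 3 in DNL and 2, 36 and 68 counts in OA, and was not tested. COL26A1 ranged from 2.91 to 3.44 CPM in WT, 1.42 to 2.12 CPM in DNL and 0.831 to 1.90 CPM in OA. It fell in OA (log2 fold change -1.34, SE 0.317, adjusted p = 0.002598), and its call in DNL (adjusted p = 0.0345) was lost without DNL replicate 1, DNL replicate 2 or any 1 WT replicate (adjusted p = 0.0579 to 0.140). COL28A1 ranged from 0.440 to 0.988 CPM in WT and 0.399 to 0.647 CPM in DNL, and had 1, 6 and 0 counts in OA, where it was called lower (adjusted p = 0.00719).

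Of the short-chain network collagens, COL8A1, a chain of vessel walls, was at 0.0921, 0.0339 and 0 CPM in WT, 0.0616, 0.1996 and 0.0416 CPM in DNL and 1.34, 6.19 and 47.3 CPM in OA. It was called higher in OA (log2 fold change 8.36, SE 1.77, adjusted p = 0.00558), with a log2 fold change of 6.19 without OA replicate 3 (adjusted p = 5.23e-05). COL8A2 stayed under 1 CPM in every library with no call, and COL10A1 had at most 2 counts. The transmembrane chains COL13A1, COL17A1, COL23A1 and COL25A1 had at most 8 counts in any library and were not tested.

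**Figure D3:**
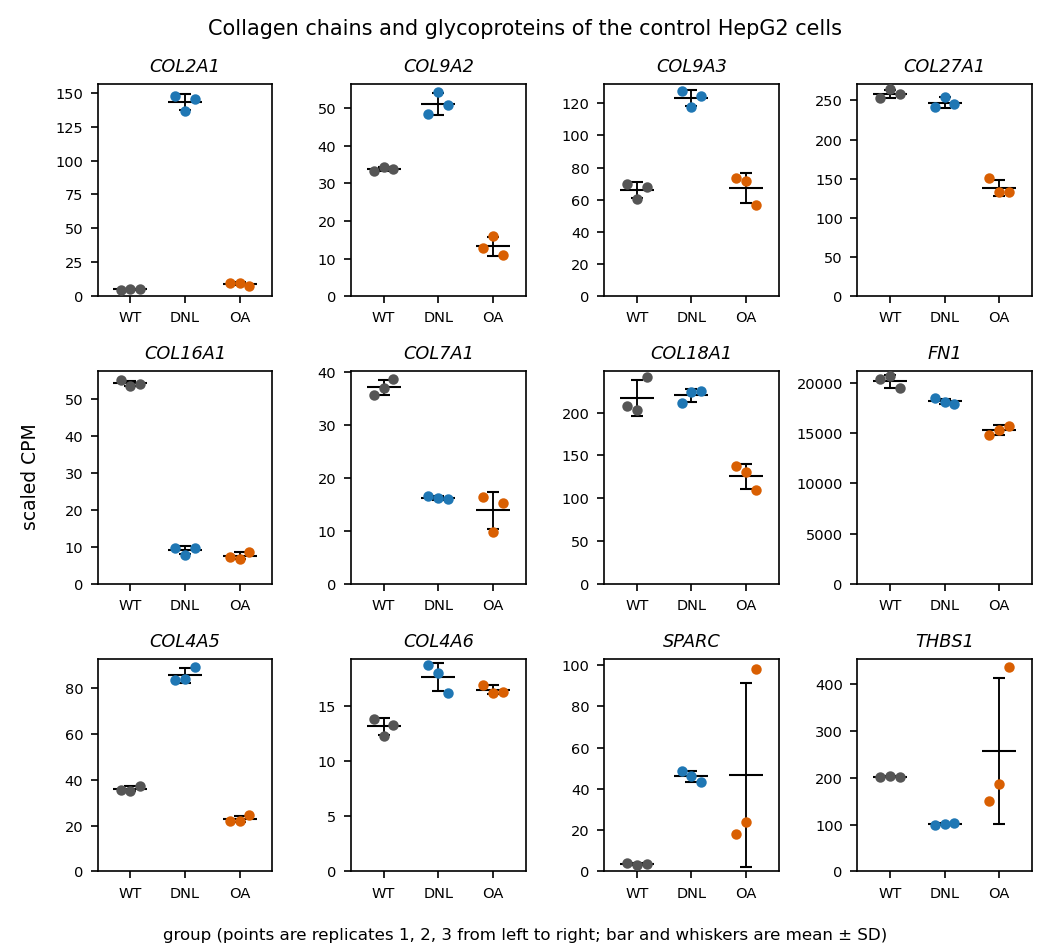
Scaled CPM of 12 of the genes in each library (points, replicates 1 to 3 from left to right) with the mean and SD of each group. COL2A1 is high in DNL alone, COL16A1 and COL7A1 are low in both treatments, COL4A5 and COL9A2 are highest in DNL and lowest in OA, and SPARC and THBS1 have 1 OA library far above the other OA libraries.

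FN1 encodes fibronectin, a glycoprotein that binds both integrins and collagen, and was by far the most abundant of these mRNAs (chromosome 2, 215360440 to 215436172). It was at 20387, 20699.6 and 19457 CPM in WT, 18457, 18103 and 17888 CPM in DNL and 14805, 15311 and 15757 CPM in OA. The groups did not overlap. FN1 was lower in DNL than in WT (log2 fold change -0.15, SE 0.0384, adjusted p = 0.00454), and lower again in OA (log2 fold change -0.400, SE 0.0385, adjusted p = 1.38e-06). The difference between DNL and OA (log2 fold change 0.25, adjusted p = 8.98e-05) was not called when libraries were scaled by their totals alone (log2 fold change 0.01, adjusted p = 0.747).

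THBS1 encodes thrombospondin 1, which slows vessel growth and activates latent TGF-beta. The 250 bases before its start site (chr15:39580829-39581078 of GRCh38.p14, plus strand) are shown as a further example, with 4 GC boxes and a CCAAT box (read as ATTGG) in capitals. The letters TATAAA were not found, as in the printed COL4A5 and COL4A6 windows, and variants of these letters were not searched. The CCAAT box directly follows a GC box.
THBS1: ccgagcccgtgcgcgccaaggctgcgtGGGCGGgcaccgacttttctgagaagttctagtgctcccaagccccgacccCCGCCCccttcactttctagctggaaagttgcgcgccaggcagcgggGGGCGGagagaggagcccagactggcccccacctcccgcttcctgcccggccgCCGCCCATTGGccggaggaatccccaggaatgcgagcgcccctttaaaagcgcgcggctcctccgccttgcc
The gene was at 201, 203 and 202 CPM in WT, 98.2, 102 and 102 CPM in DNL and 149.6, 186 and 437 CPM in OA. All DNL libraries were below all WT libraries, while OA replicates 1 and 2 were below WT and replicate 3 was above it. In the fit of 9 libraries, DNL against WT was not called (log2 fold change -1.002, SE 0.389, adjusted p = 0.0706). It was called with only WT and DNL in the fit (log2 fold change -0.99, adjusted p = 1.26e-09) and without OA replicate 3 (log2 fold change -1.004, adjusted p = 8.36e-08). OA against WT had no call (log2 fold change 0.33, SE 0.383, adjusted p = 0.498) and turned to -0.26 without OA replicate 3 (adjusted p = 0.008198). DNL was called lower than OA (adjusted p = 0.0246), a call lost without any 1 DNL replicate (adjusted p = 0.0655 to 0.0727).

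SPARC, a collagen-binding glycoprotein (chromosome 5, 151661096 to 151687165), was at 4.07, 3.15 and 3.73 CPM in WT, 48.7, 46.04 and 43.6 CPM in DNL and 18.3, 24.1 and 98.2 CPM in OA. Every treated library was above every WT library. The rise was 12.5-fold in DNL (log2 fold change 3.65, SE 0.708, adjusted p = 0.00484) and 12.1-fold in OA (log2 fold change 3.599, SE 0.721, adjusted p = 0.00482). Without OA replicate 3 the log2 fold change in OA was 2.54 (adjusted p = 1.17e-08), and DNL was then called higher than OA (log2 fold change 1.103, adjusted p = 7.79e-06), where the full set gave 0.05 (adjusted p = 0.952).

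FSTL1, a secreted relative of SPARC, was at 0.04604, 0.102 and 0.183 CPM in WT, 0.308, 0.399 and 0.374 CPM in DNL and 4.74, 14.3 and 101 CPM in OA. It was called higher in OA (log2 fold change 8.53, SE 1.67, adjusted p = 0.00432), and without OA replicate 3 the log2 fold change was 6.51 (adjusted p = 1.40e-06). POSTN, periostin, had no counts in WT or DNL and ranged from 0.395 to 7.01 CPM in OA, where it was called higher (adjusted p = 0.0228). OA replicate 1 was at least 13.2-fold and replicate 3 at least 234-fold above the floor of 3 counts over the WT group. Its call in DNL against OA was lost without OA replicate 2 (adjusted p = 0.0553).

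Elastic fibre genes followed the same order among OA libraries. ELN, elastin (chromosome 7, 74027789 to 74069907), was at 0.184, 0.0677 and 0.1097 CPM in WT, 0.123, 0.266 and 0.249 CPM in DNL and 22.4, 90.998 and 587 CPM in OA. In every OA library it was the most abundant of the 15 uneven genes by CPM, and it was called higher than in WT (log2 fold change 10.73, SE 2.03, adjusted p = 0.00391). The call held without OA replicate 3 (log2 fold change 8.75, adjusted p = 0.000318) but not in limma-voom (adjusted p = 0.187). FBN2, a fibrillin of developing tissue, had no counts in WT, 2 counts in DNL and 1.34, 6.95 and 35.98 CPM in OA. Replicate 1 of OA was at least 44.9-fold above the WT floor, and the OA call (adjusted p = 0.0144) did not hold with only WT and OA in the fit (adjusted p = 0.103) or without DNL replicate 3 (adjusted p = 0.0933). FBN1, the main fibrillin of adult microfibrils, was at 2.76, 1.18 and 2.49 CPM in WT, 6.87, 5.39 and 5.94 CPM in DNL and 1.26, 7.25 and 24.5 CPM in OA. OA overlapped both other groups with no call against WT (adjusted p = 0.0643), though it was called without OA replicate 1 (adjusted p = 0.00302). All DNL libraries of FBN1 were above all WT libraries. That difference (log2 fold change 1.49, SE 0.881, adjusted p = 0.198) was called without OA replicate 1 (adjusted p = 0.0370) and with only WT and DNL in the fit (adjusted p = 0.000828).

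BGN, biglycan, is a small leucine-rich proteoglycan that binds collagen (chromosome X, 153494939 to 153509554). It was at 1.57, 1.35 and 1.06 CPM in WT, 6.898, 7.52 and 6.73 CPM in DNL and 2.13, 6.75 and 34.3 CPM in OA, and all treated libraries were above all WT libraries. OA against WT was called (log2 fold change 3.36, SE 0.957, adjusted p = 0.02003) but not without any 1 WT replicate (adjusted p = 0.0580 to 0.0665) or with only WT and OA in the fit (adjusted p = 0.0573), and without OA replicate 3 it was 1.79 (adjusted p = 0.00181). DNL against WT was not called (log2 fold change 2.39, SE 0.936, adjusted p = 0.0696), and was called without OA replicate 3 (adjusted p = 0.000143) or OA replicate 1 (adjusted p = 0.0151). DCN, decorin, ranged from 1.01 to 3.56 CPM over all libraries with no call, and LUM, lumican, had 0, 8 and 6 counts in OA and none elsewhere.

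MGP, an inhibitor of calcification, had 1 count in WT, none in DNL and 0.711, 2.41 and 12.6 CPM in OA. The ratio of OA to WT had an exact 95% interval of 65.01 to 14559, and the call (adjusted p = 0.00329) was lost without WT replicate 1 (adjusted p = 0.0590). PXDN, the peroxidase that cross-links type IV collagen, had 1 count in WT, none in DNL and 2.37, 10.2 and 73.7 CPM in OA. Its ratio of OA to WT had an interval of 336 to 74108, and its call (adjusted p = 0.0223) was lost without any 1 WT replicate (adjusted p = 0.0849 to 0.169).

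The enzymes and carriers that make collagen are listed next, 3 values of a gene being its mean levels in WT, DNL and OA in that order, and the counts are of genes that passed the test at an adjusted p under 0.05. Over all tested genes, 53.8% were called in DNL against WT, 60% in OA against WT and 62.8% in DNL against OA. Of these calls, 50.3%, 50.5% and 50.8% were higher. Of 17 tested genes of collagen folding and modification, DNL exceeded WT in 8 and was below it in 6, and OA exceeded WT in 6 and was below it in 5. The called shares of this list were 82.4%, 64.7% and 82.4% in the same order. PLOD1 and PLOD2, which hydroxylate collagen lysines, rose in DNL: PLOD2 was at 90.8 ± 1.902, 421 ± 10.999 and 120.3 ± 3.64 CPM (adjusted p = 5.87e-13 for DNL against WT). PLOD1 was at 128 ± 3.402, 298 ± 9.46 and 109 ± 2.13 CPM. The proline hydroxylase subunit P4HA1 was at 122 ± 2.56, 355 ± 8.49 and 79.7 ± 7.35 CPM, a rise in DNL (adjusted p = 2.37e-10) and a fall in OA (adjusted p = 1.18e-06). P4HA2 rose in both, from 20.97 ± 1.68 to 75.02 ± 2.798 CPM in DNL and 44.9 ± 2.15 CPM in OA. SERPINH1, the collagen chaperone HSP47, fell in DNL and rose in OA, with 232 ± 11.8, 153 ± 5.64 and 289 ± 8.4003 CPM. The prolyl isomerase PPIB fell in DNL, with 211 ± 18.2, 148 ± 10.8 and 211 ± 8.26 CPM. FKBP14 rose in OA, with 37.3 ± 2.89, 38.6 ± 2.27 and 79.5 ± 6.996 CPM, while FKBP10, also a collagen isomerase, fell in both treatments, with 194 ± 6.71, 166 ± 8.62 and 115 ± 3.53 CPM. In DNL against OA, 10 of the 17 were higher and 4 lower, led by PLOD2 and P4HA1 on one side and SERPINH1 and FKBP14 on the other.

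Of 19 tested genes of procollagen export, trimming and cross-linking, DNL exceeded WT in 10 and was below it in 5, and OA exceeded WT in 6 and was below it in 6. Called shares were 78.9% in DNL against WT, 63.2% in OA against WT and 63.2% in DNL against OA, beside 53.8%, 60% and 62.8% of all genes. With scaling by library totals, 6 in place of 10 were higher in DNL. PCOLCE, which helps cut off the end of procollagen, was at 6.61 ± 0.576, 25.4 ± 1.42 and 4.48 ± 1.08 CPM. LOXL2, a cross-linking oxidase, rose in both treatments, from 0.7796 ± 0.235 to 4.82 ± 0.951 CPM in DNL and 8.55 ± 0.414 CPM in OA. LOXL4 of the same family fell from 165 ± 0.741 to 139 ± 2.91 CPM in DNL and 30.99 ± 3.64 CPM in OA. SEC24D, of the coat that carries procollagen out of the endoplasmic reticulum, fell in DNL and rose in OA, with 146 ± 5.93, 74.97 ± 3.69 and 313 ± 25.95 CPM. MIA2, a cargo receptor at the same sites, fell in both, from 604 ± 0.966 to 381 ± 7.05 and 385 ± 7.18 CPM. CREB3L2, a transcription factor of secretory genes, fell in both treatments, with 399 ± 16.8, 236 ± 3.33 and 356 ± 15.9 CPM. In DNL against OA, 6 were higher and 6 lower, and with OA replicate 1 as the only OA library the lower ones were 3.

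**Figure D4:**
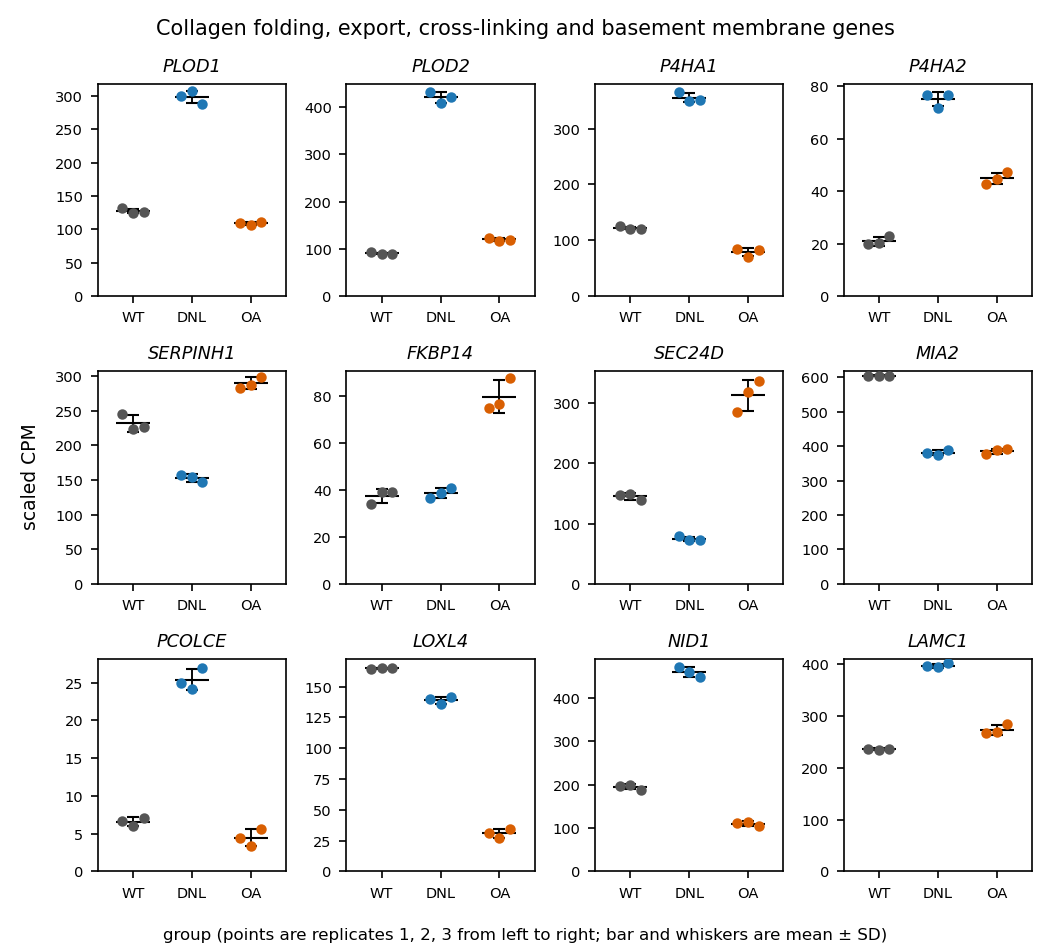
Scaled CPM of 12 genes that modify, export or cross-link collagen or build basement membranes, in each library (points, replicates 1 to 3 from left to right), with the mean and SD of each group. PLOD1, PLOD2, P4HA1, P4HA2, PCOLCE, NID1 and LAMC1 are highest in DNL, SERPINH1, FKBP14 and SEC24D are highest in OA, and LOXL4 is lowest in OA.

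Of 12 tested laminins and other basement membrane proteins, DNL exceeded WT in 7 and was below it in 0, and OA exceeded WT in 5 and was below it in 6. Called shares were 58.3% in DNL against WT, 91.7% in OA against WT and 75% in DNL against OA, beside 53.8%, 60% and 62.8% of all genes. With scaling by library totals, DNL was below WT in 2. NID1, nidogen, which links laminin to type IV collagen, rose in DNL and fell in OA, with 195 ± 5.97, 459.6 ± 11.1 and 109.8 ± 5.28 CPM. LAMC1, the common laminin gamma chain, rose in both treatments, with 236 ± 1.21, 397 ± 4.01 and 273 ± 9.99 CPM. AGRN, a heparan sulfate proteoglycan, was at 261 ± 11.7, 347 ± 9.02 and 195 ± 10.3 CPM, and LAMA5 at 388 ± 15.5, 485 ± 28.1 and 228 ± 15.9 CPM. LAMB2 fell in OA, with 237 ± 4.11, 232 ± 8.101 and 145 ± 2.14 CPM. The low LAMA2 and LAMB3 rose in both treatments, from 0.1702 ± 0.0295 and 0.0307 ± 0.0532 CPM in WT to 0.599 ± 0.452 and 0.229 ± 0.0927 CPM in DNL. In the 3 OA libraries LAMA2 was at 2.13, 4.02 and 7.36 CPM and LAMB3 at 1.03, 1.55 and 1.66 CPM. In DNL against OA 7 were higher and 2 lower, and with OA replicate 1 as the only OA library 3 rose in OA against WT and 0 were lower in DNL against OA.

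Of 17 tested matrix metalloproteinases and inhibitors, DNL exceeded WT in 5 and was below it in 1, OA exceeded WT in 7 and was below it in 4, and 4 were higher and 7 lower in DNL against OA. Called shares were 35.3%, 64.7% and 64.7% in this order, beside 53.8%, 60% and 62.8% of all genes. TIMP2, an inhibitor of these enzymes, rose in both treatments, with 130.1 ± 5.63, 179 ± 6.19 and 179.8 ± 13.8 CPM. TIMP3, which is bound to the matrix, fell in both, with 285 ± 8.14, 212 ± 9.31 and 214 ± 12.4 CPM. RECK, a membrane inhibitor, rose in DNL, with 2.19 ± 0.228, 6.58 ± 0.417 and 2.07 ± 0.383 CPM. MMP11 had 23.8 ± 0.757 CPM in WT and, without a call, 16.6 ± 2.64 CPM in DNL (adjusted p = 0.1196), and fell in OA to 1.03, 1.55 and 0 CPM. MMP15 rose in DNL and fell in OA, with 148 ± 3.68, 162 ± 6.61 and 92.5 ± 4.496 CPM. MMP25 and MMP3 rose in OA from 0.0894 ± 0.0652 CPM and 0.219 ± 0.104 CPM in WT, with no call in DNL, to 1.66, 3.49 and 3.8001 CPM and 3.24, 4.38 and 5.7001 CPM. The counts for DNL depended on single libraries: 2 rose without DNL replicate 3 or WT replicate 3 and 3 without WT replicate 2, and 2 fell without DNL replicate 3 or OA replicate 1 and 3 without OA replicate 3. In DNL against OA, 4 were lower without DNL replicate 2 or OA replicate 2, and 3 with OA replicate 1 as the only OA library.

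Of 23 tested receptors for collagen and fibronectin, DNL exceeded WT in 6 and was below it in 2, and OA exceeded WT in 11 and was below it in 4. Called shares were 34.8% in DNL against WT, 65.2% in OA against WT and 78.3% in DNL against OA, beside 53.8%, 60% and 62.8% of all genes. With scaling by library totals, DNL was below WT in 4. SDC2, syndecan 2, was at 258 ± 7.86, 389 ± 7.57 and 74.9 ± 4.07 CPM, a rise in DNL and a fall in OA, and SDC3 rose in DNL, with 6.02 ± 0.0897, 19.9 ± 1.8005 and 6.99 ± 1.61 CPM. ITGA2, a collagen-binding integrin subunit, was at 575 ± 12.6, 323 ± 9.13 and 698 ± 26.1 CPM, with a fall in DNL and a rise in OA. ITGB5 fell in DNL, with 227 ± 2.58, 123 ± 6.51 and 228 ± 4.29 CPM. ITGAV, a fibronectin and vitronectin receptor subunit, rose in both, from 246 ± 4.28 to 332 ± 19.4 and 399 ± 24.1 CPM, as did ITGA10, from 2.31 ± 0.237 to 7.74 ± 0.831 and 8.097 ± 1.29 CPM. ITGB1, the shared beta chain, fell in OA, with 1209.7 ± 45.2, 1199 ± 38.5 and 899.7 ± 29.3 CPM. Some receptors, named after their values were seen, were uneven across the OA libraries. ITGA11 was at 2.21, 4.81 and 25.7 CPM and MRC2 at 0.553, 2.11 and 12.0 CPM. The ratio of OA replicate 3 to replicate 1 was 8.27 for ITGA5 and 6.97 for ITGA8, but 1.00 for ITGB1 and 0.899 for ITGAV. In DNL against OA 7 were higher and 11 lower. Without DNL replicate 1 the lower ones were 7, and with OA replicate 1 as the only OA library they were 4, with 5 instead of 11 rising in OA against WT.

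Of 20 tested genes of TGF-beta signalling, which drives matrix production in fibroblasts, DNL exceeded WT in 9 and was below it in 6, OA exceeded WT in 10 and was below it in 6, and 5 were higher and 8 lower in DNL against OA. TGFBR3, a co-receptor, rose in DNL and fell in OA, with 231 ± 4.13, 710.1 ± 31.8 and 156 ± 16.1 CPM. TGFBR2 rose in DNL, with 522 ± 3.04, 881 ± 36.6 and 542 ± 20.4 CPM, and TGFBR1 rose in both treatments, with 61.6 ± 2.73, 67.8 ± 0.867 and 96.5 ± 3.68 CPM. The ligand TGFB1 was at 173 ± 5.102, 126 ± 6.16 and 213 ± 20.8 CPM, lower in DNL and higher in OA. SMAD3, which carries the signal, fell in both, from 178 ± 9.39 to 122 ± 2.28 and 107 ± 13.6 CPM, and SKIL, which restrains it, rose in both, from 59.3 ± 2.07 to 90.5 ± 5.93 and 141 ± 5.71 CPM. The target CCN1 fell in both, from 95.4 ± 7.61 to 38.004 ± 2.13 and 56.5 ± 5.58 CPM, and TGFBI, a matrix protein induced by TGF-beta, from 232 ± 3.82 to 177 ± 9.64 and 179 ± 9.42 CPM. In the same 3 comparisons, 75%, 80% and 65% of this list were called, beside 53.8%, 60% and 62.8% of all tested genes. Some genes of the list, named after their values were seen, were uneven across the OA libraries. TGFB2 was at 0.395, 1.45 and 5.23 CPM, and LTBP1 was 4.10 times as high in OA replicate 3 as in replicate 1. That ratio was 1.04 for TGFBR1 and 0.822 for TGFB1.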

How the data were processed

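Per the labels' protocols, the 9 HepG2 samples gave stranded libraries of total RNA from which ribosomal RNA had been removed. The authors deposited a table of estimated counts for each gene. Kallisto 0.48.0, FastQC 0.11.9 and GRCh38 are named in the submitters' processing notes. Annotation release and strand setting are not given in the sources read, so reads of overlapping genes may be split between them. Samples were grouped by their titles, because the DNL treatment stands in the shared protocol text of all samples.

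Estimated counts were rounded, filtered with filterByExpr (13636 genes left), scaled by TMM and tested in edgeR 4.0.16 (R 4.3.3, quasi-likelihood) with 1 robust fit of all 9 libraries with group as the only factor. DESeq2 1.42.0, limma-voom (limma 3.58.1), other scalings, filters, the 2 groups compared alone, a replicate block and leaving out each library were alternatives, and keeping only OA replicate 1 was added after seeing the data. The procedure was tested on simulated counts. Where a group had no counts, the fold is a lower bound against 3 counts over that group, and with 1 to 3 counts an exact 95% interval of the ratio is given. Both cover counting error only. Ratios per length use the longest coding transcript in GENCODE release 29, which also gives gene coordinates. Sequences are from RefSeq (GRCh38.p14), where 41 of the 57 genes had an upstream window.

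The genes and lists were chosen with earlier results of these data known. Genes of the set with at least 5 CPM in a group are named with every library's value (COL3A1, FBN2, MGP and PXDN with group counts in WT and DNL, where they had few or none), those called below that level with their range, and up to 4 genes per pathway list and comparison by adjusted p, 2 for each direction where both had calls. Other named genes are marked. No pair of replicates agreed within sampling noise (chi-square of 5.29 to 15.8 per degree of freedom).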

Additional observations from a re-analysis of the deposited data

How the results depend on the processing

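Counts of called collagen and matrix genes in DNL against WT moved most when OA libraries were left out, which changes the shared fit and the genes that pass the filter: keeping only OA replicate 1, chosen after seeing the data, gave 10 higher and 7 lower in place of 6 and 4, and scaling by library totals gave 7 lower. With that lone OA library, assumed to vary like the other groups, pathway genes lower in DNL than in OA fell from 38 to 21. THBS1 in OA against WT ran from -0.26 (without OA replicate 3) to 0.59 (without OA replicate 1) around 0.33, and was -0.43 with only OA replicate 1. With only OA replicate 1, FBN1 and BGN in DNL against OA turned to 2.27 and 1.72 from -0.79 and -0.97. Leaving out each library in turn gave 6 to 9 higher and 3 to 7 lower genes of the set in DNL against WT, 15 to 21 and 9 to 11 in OA against WT, and 8 to 11 and 14 to 18 in DNL against OA. Scaling by library totals moved the median log2 fold change of all genes in DNL against WT from -0.02 to -0.18, the share of calls that were higher there from 50.3% to 32.2%, and that in DNL against OA from 50.8% to 33.9%. Under that scaling COL27A1 was also called lower in DNL (-0.23, adjusted p = 0.00250), and COL16A1 was not called in DNL against OA. Over the 24 genes of the set that pass the filter without OA libraries, a choice made after seeing the data, 9 were higher in OA than in WT in place of 19, and 5 lower in DNL than in OA in place of 16, since 12 genes drop out. The causes were otherwise not tested, beyond what each alternative changes by construction. With only 2 groups in the fit, DNL against WT gave 9 higher and 6 lower genes, and limma-voom called 17 higher in OA. Whether the replicate numbers pair the samples is not in the labels. With group means taken out, same-numbered libraries correlated from -0.02 to 0.11, over 0.1 in 1 of 9 pairs. Libraries of other numbers correlated from -0.11 to 0.06. With 3 libraries per group, these values cannot decide whether samples were paired. A replicate block gave 6 and 4 calls in DNL against WT, 19 and 9 in OA against WT and 10 and 17 in DNL against OA. It called COL1A2 in OA (adjusted p = 2.46e-08), and not BGN in OA (adjusted p = 0.0577) or COL26A1 in DNL (adjusted p = 0.0542). Depth limits the genes of few counts: 3 counts were 0.356 CPM in the shallowest library.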

Other observations

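Genes known from cartilage, where type II and type IX collagen belong, were looked at after the values of COL2A1 had been seen. SOX9, the transcription factor that turns on COL2A1 in cartilage, was at 319.7 ± 8.13 CPM in WT, 661 ± 28.6 CPM in DNL and 254 ± 14.9 CPM in OA, a rise in DNL (adjusted p = 1.45e-09) and a fall in OA (adjusted p = 5.65e-05). Its partners SOX5 and SOX6 rose in DNL too, SOX5 from 41.1 ± 3.19 to 67.6 ± 2.54 CPM (adjusted p = 1.21e-06) and SOX6 from 0.873 ± 0.266 to 3.16 ± 0.311 CPM (adjusted p = 0.000376). MATN3, a cartilage matrilin that binds type IX collagen, rose in DNL from 271 ± 1.42 to 870.4 ± 48.1 CPM (adjusted p = 9.87e-12). SNORC, a proteoglycan of cartilage, fell in both treatments, from 243 ± 6.704 to 145 ± 9.54 CPM in DNL and 106 ± 2.39 CPM in OA. CHAD, chondroadherin, fell in both too, from 1.12 ± 0.109 CPM in WT to 0.0344 ± 0.0314 CPM in DNL (log2 fold change -4.61, adjusted p = 2.78e-05) and 0.301 ± 0.1103 CPM in OA (adjusted p = 0.00571). COMP rose in both, from 0.896 ± 0.216 to 2.71 ± 0.368 CPM in DNL (adjusted p = 0.000674) and 4.1 ± 1.29 CPM in OA (adjusted p = 3.47e-05). MATN2 was under 1 CPM in every library and rose in OA (adjusted p = 0.00583). ACAN, MATN1 and HAPLN1, other genes of the cartilage matrix, were at most 2.02 CPM in any library and were not tested, and CNMD had no count in any library.

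Among the 64 genes with the order of OA replicates 1, 2 and 3 and a 10-fold range, 15 were collagen chains or matrix glycoproteins of the set. Others, named after their values were seen, were IGFBP5 at 2.61, 9.42 and 74.3 CPM in OA, FBLN5 at 2.13, 5.54 and 26.6 CPM, NOTCH3 at 1.18, 5.14 and 25.5 CPM, and GJA1, listed at 0 in WT and DNL, at 0.711, 2.87 and 18.1 CPM. EFEMP1 and OGN, of elastic fibres and the small leucine-rich proteoglycans, were also listed at 0 in WT and DNL and reached 16.2 and 11.9 CPM in OA replicate 3.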
